A study of Homo sapiens with 13 samples.

Results

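The genes described here encode 10 amino acid transporters of the plasma membrane: SLC38A1, SLC38A2, SLC1A4, SLC1A5, SLC7A1, SLC7A5, SLC7A6, SLC7A7, SLC7A11 and SLC3A2. They were measured in CCRF-CEM, a line from a human acute leukemia of T lymphoblasts, and were chosen by the gene name that the array design gives each probe. They are 10 of the 25940 gene names on the array, which held 13 probes for them out of 34127 gene probes, 3 for SLC38A1, 2 for SLC38A2 and 1 for each other gene. All 13 were among the 22754 probes kept for testing, those whose signal exceeded background on each array of 1 group or more.

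RNA came from parental cells (CEM PA) and from a population made resistant to FK866, an inhibitor of the NAD+ producing enzyme NAMPT, by culture in rising drug concentrations (CEM RES). The resistant cells withstood 100 nM FK866 and, per the study's methods, were passaged with the drug present, so mock-treated CEM RES were not drug-naive. Both lines grew in RPMI with 10% fetal bovine serum and 2 mM glutamine and then received the vehicle DMSO (mock) or 5 nM FK866 for 48 h. The groups held 3 arrays of CEM PA mock, 2 of CEM PA FK866, 4 of CEM RES mock and 4 of CEM RES FK866, each labelled as a biological replicate. CEM RES is a single selected population, so a difference between the lines describes this pair of cultures.

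A lymphoblast takes up amino acids through carriers with different rules of exchange. SLC38A1 and SLC38A2 (SNAT1 and SNAT2) accumulate glutamine, alanine and other small neutral amino acids together with sodium. SLC1A5 (ASCT2) and SLC1A4 (ASCT1) exchange small neutral amino acids, glutamine among the substrates of SLC1A5. SLC7A1 (CAT1) carries arginine and lysine. SLC7A5 (LAT1), SLC7A6, SLC7A7 and SLC7A11 are light chains that reach the membrane bound to SLC3A2, the CD98 heavy chain; LAT1 trades intracellular glutamine for leucine, tryptophan and other large neutral amino acids, and SLC7A11 trades glutamate for cystine. Several of these genes are known targets of ATF4, the transcription factor of the amino acid response, which binds C/EBP-ATF response elements. The study listed amino acid transport among the functions that separated the lines and tested a LAT1 inhibitor on them. It proposed that CEM RES depended on amino acids through raised activity of QPRT, an NAD+ producing enzyme, and not through more LAT1. LAT1 was read there by CD98 staining of cells, whereas the values here are of RNA.

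SLC38A1 and SLC38A2 were measured at several places along their transcripts, and these places gave different answers, so their sequences are shown first. The first 30 of 60 bases of each probe follow, 5′ to 3′, with the base of the transcript at which the array design starts the probe.
SLC38A1 probe at base 137: tctttgcgcctaggccggtgctttctcggt
SLC38A1 probe at base 3258: ttggggatgattcttaccttggtaattaaa
SLC38A1 probe at base 8204: atccactctctagagtccagtgtactttag
SLC38A2 probe at base 2170: acaaaaccacgagtctcgggttaagggaag
SLC38A2 probe at base 4085: aggttcaaaatcaagtgcctagggaaaatt

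In hg19, the build of the array design, all 5 lie on the minus strand of chromosome 12. The SLC38A2 probes A_23_P218079 (base 2170, chr12:46754625-46754684) and A_24_P295963 (base 4085, chr12:46752710-46752769) belong to transcript NM_018976. They are 1915 bases apart both in the transcript and in the genome, so no intron separates them, and the design assigns both to the same 2 Ensembl transcripts. The SLC38A1 probes A_23_P363399 (base 3258, chr12:46582007-46582066) and A_24_P261734 (base 8204, chr12:46577061-46577120) of NM_030674 are 4946 bases apart in both, again with no intron between them. The design lists 2 Ensembl transcripts for the first and none for the second. The remaining SLC38A1 probe, A_33_P3288871 (chr12:46663538-46663597), starts at base 137 of another transcript, ENST00000550173, and lies 81531 bases upstream of the base 3258 probe in the genome. Probes of 1 gene shared no run of more than 6 bases. Their GC contents were 41.7% and 40% for SLC38A2 and 55%, 35% and 41.7% for SLC38A1, in the order listed above. Coding and untranslated limits of these transcripts in hg19 were not analysed here.

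Values below are log2 normalized signals, where 1 unit is a doubling. Differences are given with the standard error (SE) and the Benjamini-Hochberg adjusted p of limma's moderated test over all 22754 probes, and a probe is called when this p is under 0.05. Bulk RNA cannot tell fewer cells expressing a gene from less RNA per cell. Between 61.4% and 77.1% of gene spots per array were well above background, and arrays of a group correlated at 0.977 to 0.991. All 7 probes of the T cell list (LCK, CD3D, CD3E, CD3G, CD5, CD7) were well above background on all arrays. The lines differed at several of them: CD3E was higher by 1.12 (adjusted p = 0.000622) and CD5 lower by 1.96 on the log2 scale in mock-treated CEM RES (log2 difference -1.96, adjusted p = 0.000754). Of the B cell markers, CD79A differed by -0.42 (adjusted p = 0.0779) and MS4A1 by 0.32 (adjusted p = 0.638) between the mock-treated lines. Their part in the results was not tested. The CEM RES arrays were all scanned in a session of their own, so line and scan session cannot be told apart.

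**Figure D1:**
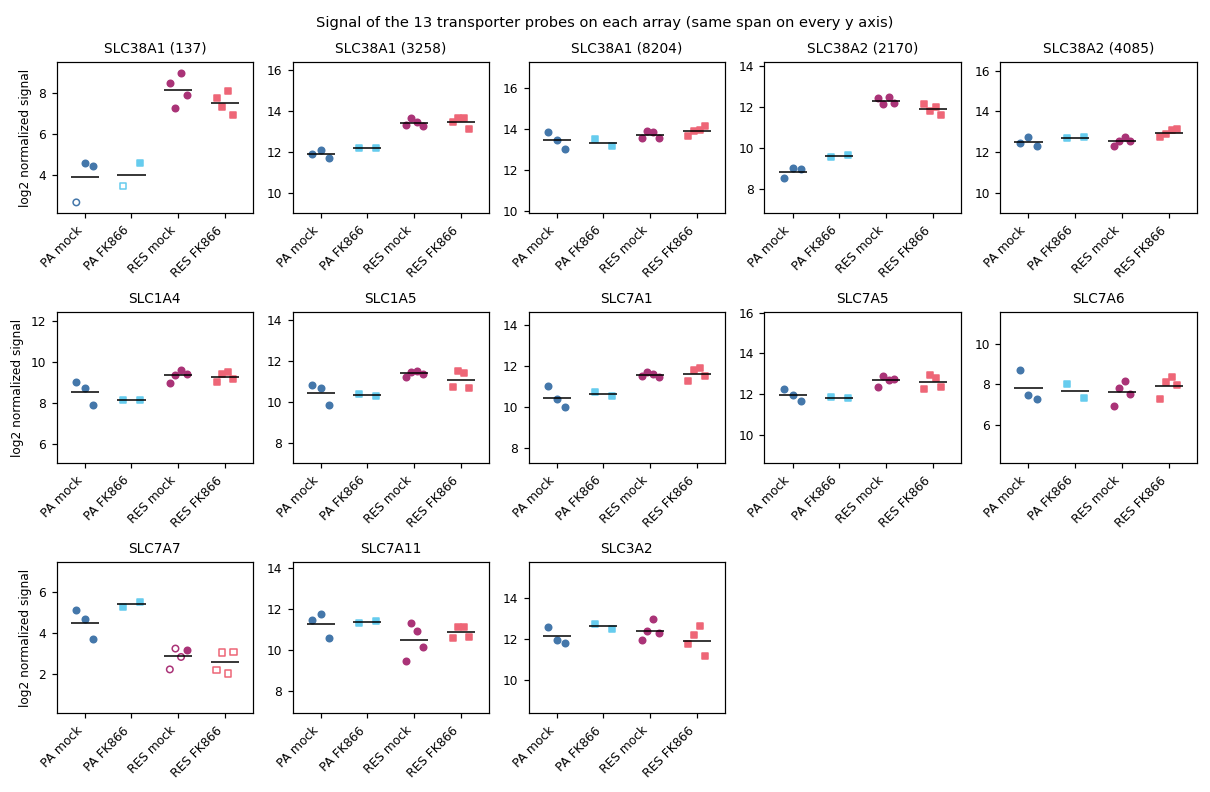
Log2 normalized signal (y axis) of each transporter probe on each array (points) by group (x axis), with horizontal lines at group means and open symbols where the probe was not well above background; numbers in panel titles are the transcript base at which a probe starts. SLC38A2 at base 2170 separated the lines by over 3 units in mock cells, while SLC38A2 at base 4085 had means of 12.51 and 12.53.

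In mock-treated cells, the sodium-coupled carriers SLC38A1 and SLC38A2, the exchangers SLC1A4 and SLC1A5, the arginine carrier SLC7A1 and the LAT1 light chain SLC7A5 had a probe that was higher in CEM RES, and SLC7A7 was lower. Of the 13 probes, 8 were called, 7 higher and 1 lower. Of all probes tested, 47.6% were called, 24.9% higher and 22.7% lower. The median difference was 0.72 over the 13 probes and 0.04 over all probes, and the median size without regard to sign was 0.82 against 0.56. The groups did not overlap for 7 of 13 probes, against 48.8% of all probes. Over the array the calls were split almost evenly between higher and lower.

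SLC38A2 (SNAT2) at base 2170 had the smallest adjusted p of the 13. CEM PA mock arrays read 8.55, 9.02 and 8.97, and CEM RES mock arrays read 12.46, 12.16, 12.49 and 12.20. Every CEM RES array lay above every CEM PA array. The difference was 3.48 (SE 0.17, adjusted p = 1.8e-07), which is 11.2-fold. At base 4085 the same transcript read 12.47, 12.73 and 12.31 for CEM PA against 12.31, 12.56, 12.73 and 12.54 for CEM RES. The groups overlapped, with a difference of 0.03 (95% interval -0.31 to 0.36, adjusted p = 0.9).

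SLC38A1 (SNAT1) divided in the same manner. At base 3258, CEM PA mock arrays read 11.89, 12.07 and 11.72 and CEM RES mock arrays 13.33, 13.67, 13.48 and 13.25, a difference of 1.54 (SE 0.17, adjusted p = 2.68e-05). At base 8204, the readings were 13.84, 13.44 and 13.01 against 13.57, 13.87, 13.83 and 13.57. These groups overlapped, and the difference of 0.28 (95% interval -0.15 to 0.72) was not called (adjusted p = 0.268). The probe at base 137 of the other transcript was dim in CEM PA, at 2.67, 4.59 and 4.47, and was not well above background on the first of these arrays. It read 8.52, 7.28, 9.01 and 7.93 in CEM RES, at least 13.3-fold higher (fitted difference 4.27, SE 0.52, adjusted p = 5.19e-05). With another background correction (normexp) this fitted difference of the dim SLC38A1 probe was 2.00, and it was still called.

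Whether 2 probes of a gene differed between groups by unequal amounts was tested on the difference of their log2 signals on each array, over all 6585 pairs of kept probes of 4088 genes. For SLC38A2, the signal at base 2170 minus that at base 4085 was -3.66 ± 0.29 (SD, n = 3) in CEM PA mock, -3.11 ± 0.06 (n = 2) in CEM PA FK866, -0.21 ± 0.25 (n = 4) in CEM RES mock and -1.05 ± 0.36 (n = 4) in CEM RES FK866. The lowest CEM RES array, at -1.51, lay above the highest CEM PA array, at -3.07. The lines differed by 3.45 in mock cells (SE 0.22, adjusted p = 1.42e-06 by limma) and by 2.06 under FK866 (SE 0.25, adjusted p = 0.000143). Unequal probes were common on this array: 46.4% of pairs were called between the mock-treated lines and 36.2% under FK866. By size, the SLC38A2 pair stood at the 98.8 percentile of all pairs in mock cells and the 93.4 percentile under FK866.

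For SLC38A1, the signal at base 3258 minus that at base 8204 was -1.54 ± 0.36 (SD, n = 3) in CEM PA mock and -0.28 ± 0.07 (n = 4) in CEM RES mock. The lines differed by 1.26 (SE 0.23, adjusted p = 0.000958 by limma), at the 76 percentile of all pairs. Under FK866 the difference was 0.69 (SE 0.26) and was not called (adjusted p = 0.0559). Leaving out CEM RES FK866 replicate 4, whose value of -1.03 was far from the other 3 (-0.29 to -0.20), gave 0.89 (adjusted p = 0.00981). With the replicate block, which here joined same-numbered arrays of separate cultures, this SLC38A1 pair gave 0.78 (adjusted p = 0.0443). The probe at base 8204 and the dim probe at base 137 of SLC38A1 differed by -3.99 between the mock-treated lines (SE 0.65, adjusted p = 0.000482). Since the dim probe was not well above background on 1 CEM PA mock array, this size depends on the background correction, and with normexp it was -1.75 (adjusted p = 0.0024). Each probe shows only its own stretch of RNA, and which transcripts each line made was not tested.

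**Figure D2:**
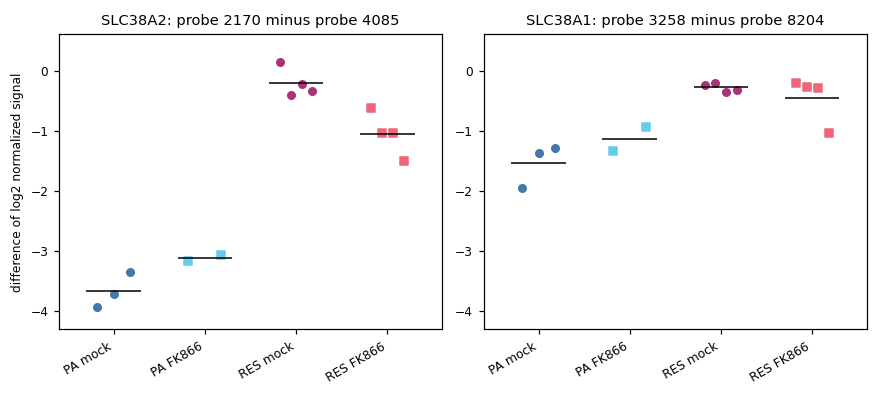
Difference of the log2 normalized signals of 2 probes of a gene (y axis) on each array (points) by group (x axis), with lines at group means; left SLC38A2, right SLC38A1. For SLC38A2 the group means rise from -3.66 in CEM PA mock to -0.21 in CEM RES mock, and for SLC38A1 from -1.54 to -0.28.

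The neutral amino acid exchangers were both higher in CEM RES. SLC1A5 (ASCT2, NM_005628 base 2054, chr19:47278899-47278958) read 10.82, 10.66 and 9.86 in CEM PA mock and 11.23, 11.45, 11.49 and 11.37 in CEM RES mock. The groups did not overlap, and the difference was 0.94 (SE 0.25, adjusted p = 0.00914), 1.92-fold. SLC1A4 (ASCT1, NM_003038 base 3636, chr2:65250035-65250094) read 9.05, 8.74 and 7.89 against 9.01, 9.40, 9.63 and 9.42. Here 1 CEM PA array lay above the lowest CEM RES array, and the difference was 0.81 (SE 0.25, adjusted p = 0.019). The call of SLC1A4 rested on CEM PA mock replicate 3: without that array the difference was 0.47 (adjusted p = 0.0876). It was also lost without CEM RES mock replicate 3 (0.72, adjusted p = 0.0503) and when only the compared groups entered the fit (adjusted p = 0.054).

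The arginine and lysine carrier SLC7A1 (NM_003045 base 6741, chr13:30084093-30084152) read 11.01, 10.39 and 9.98 in CEM PA mock and 11.51, 11.71, 11.61 and 11.49 in CEM RES mock. The CEM RES arrays were close to each other and all above CEM PA, with a difference of 1.12 (SE 0.23, adjusted p = 0.00161), 2.17-fold. This call held under all 26 alternatives run, with differences of 0.88 to 1.39 for SLC7A1.

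The light chain SLC7A5 (LAT1, NM_003486 base 4205, chr16:87863907-87863966) read 12.25, 11.95 and 11.69 in CEM PA mock and 12.37, 12.92, 12.70 and 12.76 in CEM RES mock. The groups were separate by a small gap, and the difference was 0.72 (SE 0.21, adjusted p = 0.0122), 1.65-fold. Without CEM PA mock replicate 3, the difference for SLC7A5 was 0.58 (adjusted p = 0.0571). The array also carries a probe named for the pseudogene SLC7A5P1, which differed by 0.67 (adjusted p = 0.207). Whether the SLC7A5 probe reads pseudogene RNA was not tested.

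SLC7A7 (y+LAT1, NM_001126106 base 2039, chr14:23242604-23242663) was the member called lower. CEM PA mock arrays read 5.13, 4.70 and 3.69, all well above background. CEM RES mock arrays read 2.22, 3.24, 2.83 and 3.16, and only 1 of 4 was well above background. SLC7A7 was at least 2.4-fold lower in CEM RES (fitted difference -1.64, SE 0.37, adjusted p = 0.00339). At this low signal the background correction mattered: with normexp the fitted difference of SLC7A7 was -0.25 (adjusted p = 0.0582).

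The related light chain SLC7A6 (y+LAT2), the cystine carrier SLC7A11 and the common heavy chain SLC3A2 were not called between the mock-treated lines. SLC7A6 (NM_001076785 base 5294, chr16:68334665-68334724) read 8.72, 7.50 and 7.30 for CEM PA against 6.96, 7.84, 8.16 and 7.52 for CEM RES, a difference of -0.22 (95% interval -1.05 to 0.61, adjusted p = 0.662). A probe of SLC7A6OS on the opposite strand nearby differed by -0.11 (adjusted p = 0.593). SLC7A11 (NM_014331 base 9403, chr4:139085433-139085492) read 11.45, 11.75 and 10.60 against 9.43, 11.32, 10.94 and 10.13. Its CEM RES arrays spread over almost 2 units, and the difference was -0.82 (95% interval -1.69 to 0.05, adjusted p = 0.112). Leaving out CEM RES mock replicate 2 gave -1.10 for SLC7A11 with an adjusted p of 0.032, and leaving out CEM PA mock replicate 3 gave -1.15 with an adjusted p of 0.0487.

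SLC3A2 (CD98 heavy chain, NM_001012662 base 1422, chr11:62652689-62652748) read 12.62, 11.98 and 11.83 in CEM PA mock and 11.99, 12.41, 12.99 and 12.32 in CEM RES mock. The groups overlapped, with a difference of 0.29 (95% interval -0.44 to 1.01, adjusted p = 0.507). The interval for SLC3A2 includes the 0.72 measured for its partner SLC7A5 in these mock-treated cells. Under FK866 the lines differed by -0.70 for SLC3A2 (95% interval -1.52 to 0.13) and by 0.76 for SLC7A5 (95% interval 0.25 to 1.27). Whether heavy and light chain moved by different amounts was not tested.

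CEM PA mock replicate 3 was the lowest of its 3 arrays at 11 of the 13 transporter probes and at 37.8% of all probes. The lines differed more with this array than without it at SLC1A4 and SLC7A5, as given above, and also at SLC1A5 and SLC7A1. Across 26 alternatives the difference ranged over 0.65 to 1.13 for SLC1A5 and over 0.88 to 1.39 for SLC7A1, and both were called in each. SLC38A2 at base 2170 and SLC38A1 at base 3258 did not depend on this array: their differences ranged over 3.24 to 3.59 and over 1.42 to 1.63 across all 25 alternatives, and both were called in each.

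**Figure D3:**
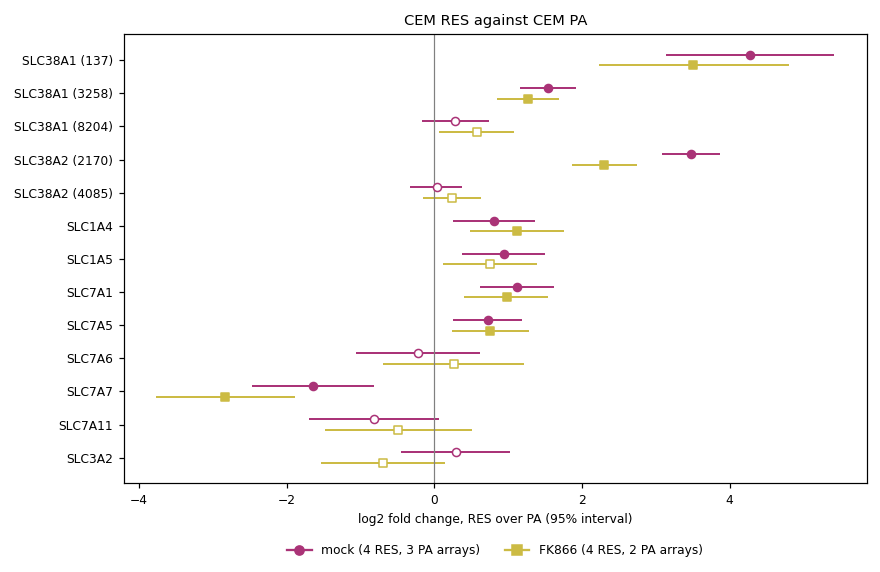
Log2 fold change of CEM RES over CEM PA (x axis) with 95% intervals for each transporter probe (y axis), in mock cells (circles) and under FK866 (squares); filled symbols have an adjusted p under 0.05. Under mock, 7 filled symbols lie to the right of 0 and that of SLC7A7 to the left.

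With 5 nM FK866 in both lines, the differences between them kept their order of size for the SLC38 probes. Of the 13 probes 7 were called, 6 higher in CEM RES and 1 lower. Of all probes 36% were called, 18% higher and 18% lower. Among the 11 probes well above background on all 13 arrays, 6 were called, all higher, beside 39.3% of all such probes. The groups did not overlap for 11 of 13 probes, against 57.8% of all probes, with only 2 CEM PA arrays. The median difference was 0.76 over the 13 probes and 0.06 over all probes.

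SLC38A2 at base 2170 read 9.55 and 9.66 in CEM PA FK866 and 12.15, 11.84, 12.03 and 11.62 in CEM RES FK866, a difference of 2.30 (SE 0.20, adjusted p = 1.33e-05). At base 4085 the readings of 12.71 and 12.73 lay just below 12.77, 12.88, 13.07 and 13.13, and the difference of 0.24 was not called (adjusted p = 0.303). SLC38A1 at base 3258 read 12.17 and 12.20 against 13.44, 13.63, 13.64 and 13.10, a difference of 1.27 (SE 0.19, adjusted p = 0.000417). At base 8204 the difference for SLC38A1 was 0.58 without a call (adjusted p = 0.0661), and it was called under 6 of 26 alternatives. Here the dim probe at base 137 was at least 10.2-fold higher in CEM RES (adjusted p = 0.000813). Across 24 alternatives the fitted difference of this dim probe ranged over 1.43 to 4.07, and it was called in each.

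Of the other carriers under FK866, SLC1A4 differed by 1.12 (SE 0.29, adjusted p = 0.00974), SLC7A1 by 0.98 (SE 0.26, adjusted p = 0.011) and SLC7A5 by 0.76 (SE 0.23, adjusted p = 0.0238). Each of these calls was lost when either CEM PA FK866 array was left out, with adjusted p values of 0.0508 to 0.12 for SLC1A4, SLC7A1 and SLC7A5, and with differences that stayed between 0.73 and 1.13. That of SLC7A5 was also lost without CEM RES FK866 replicate 2 (0.64, adjusted p = 0.0555) or replicate 3 (0.69, adjusted p = 0.0546). SLC1A5 differed by 0.76 without a call (SE 0.29, adjusted p = 0.0577), but was called under 8 of 26 alternatives. SLC7A7 read 5.29 and 5.52 in CEM PA FK866, while all 4 CEM RES FK866 arrays, at 2.18, 3.05, 2.02 and 3.07, were not well above background. It was at least 5.75-fold lower in CEM RES (fitted difference -2.83, adjusted p = 0.000422). Across 25 alternatives the fitted difference of SLC7A7 ranged over -2.99 to -0.55, and it was called in each. SLC7A6 (0.26), SLC7A11 (-0.49) and SLC3A2 (-0.70) were not called, with adjusted p values of 0.675, 0.431 and 0.17. The comparisons between lines under mock and under FK866 share no array.

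The median size of the difference between FK866 and mock over the 13 probes was 0.19 in CEM PA and 0.31 in CEM RES, beside 0.82 between the mock-treated lines. Over all probes the medians were 0.25, 0.14 and 0.56. In CEM PA, limma called 0 of the 13 probes against 1.53% of all probes, and 1 of 13 had an unadjusted p under 0.05. That probe, SLC38A2 at base 2170, was the 1 that also passed the study's double threshold (unadjusted p under 0.05 and a log2 difference over 0.75), against 6.7% of all probes. Its FK866 arrays read 9.55 and 9.66, above the 3 mock arrays at 8.55 to 9.02, a difference of 0.76 (SE 0.21, adjusted p = 0.0953). In CEM PA the groups did not overlap for 3 of the 13 probes, against 34.8% of all probes. Blocked by replicate number, the difference for SLC38A2 was 0.82 and was called (adjusted p = 0.034). Within scan sessions the difference at base 2170 was 1.00 in the first (1 array against 1) and 0.67 in the second (1 against 2). At base 4085, the difference in CEM PA was 0.21 (SE 0.18, adjusted p = 0.68).

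SLC1A4 was the other transporter whose call changed with the block. It read 8.18 and 8.16 under FK866 and 9.05, 8.74 and 7.89 in mock CEM PA, and the FK866 arrays fell inside the spread of the mock arrays. The difference for SLC1A4 was -0.39 (SE 0.30, adjusted p = 0.626) without the block and -0.73 (adjusted p = 0.0412) with it. SLC7A7 read 5.13, 4.70 and 3.69 in mock arrays and 5.29 and 5.52 under FK866, and was not called (0.90, 95% interval -0.08 to 1.87, adjusted p = 0.394). The LAT1 chains SLC7A5 (-0.12, 95% interval -0.66 to 0.41) and SLC3A2 (0.49, 95% interval -0.37 to 1.36) were not called. With 2 treated arrays these intervals reach past 1.5-fold in at least 1 direction for each of the probes named here.

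In CEM RES, limma called 0 of the 13 probes and 0% of all probes at this dose; 2 of the 13 and 1171 of all probes had an unadjusted p under 0.05, and 5 and 2541 with the replicate block. The 2 were the SLC38A2 probes, and their differences had opposite signs. At base 2170 the FK866 arrays read 12.15, 11.84, 12.03 and 11.62, all below the mock arrays at 12.46, 12.16, 12.49 and 12.20, a difference of -0.42 (SE 0.16, adjusted p = 0.938). At base 4085 they read 12.77, 12.88, 13.07 and 13.13, all above the mock arrays at 12.31, 12.56, 12.73 and 12.54, a difference of 0.43 (SE 0.14, adjusted p = 0.938). These were the 2 of 13 probes whose groups did not overlap, against 2.9% of all probes. On the slides, which each held 2 mock and 2 FK866 arrays, the differences were -0.26 and -0.58 at base 2170 and 0.28 and 0.57 at base 4085 of SLC38A2.

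The SLC38A2 probe pair differed by -0.85 between FK866 and mock in CEM RES (SE 0.21, unadjusted p = 0.00158, adjusted p = 0.64 by limma), where 0% of all pairs were called, and stood at the 96.7 percentile by size. In CEM PA the pair differed by 0.55 (SE 0.27, adjusted p = 0.378), where 4.24% of pairs were called. Between the responses of both lines, limma called 0 of the 13 probes against 0.413% of all probes, and 1 of 13 had an unadjusted p under 0.05, as did 2758 of all 22754. With the replicate block these were 7 of 13 and 5065 of all. The 1 was SLC38A2 at base 2170, with a difference of -1.18 (SE 0.26, unadjusted p = 0.000678, adjusted p = 0.0851). With the replicate block it was -1.24 and was called (adjusted p = 0.0352). The pair of SLC38A2 probes differed between the responses by -1.39 (SE 0.34, adjusted p = 0.0513), where 2.81% of pairs were called, and with the replicate block by -1.55 (adjusted p = 0.0163).

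**Figure D4:**
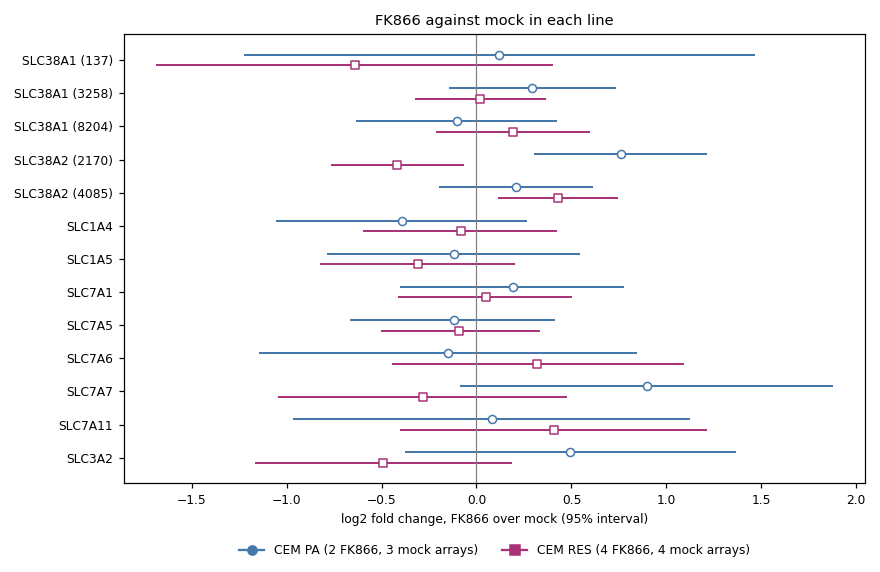
Log2 fold change of FK866 over mock (x axis) with 95% intervals for each transporter probe (y axis) in CEM PA (circles) and CEM RES (squares); open symbols have an adjusted p of 0.05 or more. All symbols are open, and SLC38A2 at base 2170 has the intervals of both lines on opposite sides of 0.

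In order of group means, SLC38A2 at base 2170 averaged 8.85 ± 0.26 (SD, n = 3) in CEM PA mock, 9.61 ± 0.08 (n = 2) in CEM PA FK866, 11.91 ± 0.23 (n = 4) in CEM RES FK866 and 12.33 ± 0.17 (n = 4) in CEM RES mock. Only the step between the lines was called by limma. At base 4085 the order was CEM PA mock (12.51 ± 0.21), CEM RES mock (12.53 ± 0.17), CEM PA FK866 (12.72 ± 0.02) and CEM RES FK866 (12.96 ± 0.17), and no step between neighbours was called in the comparisons made. SLC38A1 at base 8204 ran from 13.32 ± 0.25 in CEM PA FK866 through 13.43 ± 0.42 in CEM PA mock and 13.71 ± 0.16 in CEM RES mock to 13.90 ± 0.20 in CEM RES FK866. Over the 13 arrays, the probes of other genes most like the brightest SLC38A2 probe (base 4085) were ZNF595 (Pearson r = 0.862), WNT9B (0.859) and PLK4 (0.85). For the brightest SLC38A1 probe (base 8204) they were MSL3 (0.972), POLA1 (0.949) and NDUFAF1 (0.946). These correlations were the highest of 22719 probes for SLC38A1 and 22720 for SLC38A2 and arise across groups and scan sessions together.

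What the promoters of the transporter genes share was read from RefSeq sequence (GRCh38.p14, 250 bases before and 50 after each start site), which held 17 promoters of 9 of the 10 genes. The C/EBP-ATF response element was searched as TGATGNAAN on both strands, and the E-box bound by MYC as CACGTG, which reads alike on both. The first was found in 5 of the 17 promoters, in SLC38A1, SLC1A4, SLC1A5, SLC7A1 and SLC3A2, and in 3.61% of all 35116 promoters. The E-box was found in 3, in SLC1A5, SLC7A5 and SLC7A7, and in 7.26% of all promoters. No match of 1 motif overlapped the other. They are shown 5′ to 3′ along the gene with the match in capitals; a match is a description of these letters.
SLC38A1, chr12:46266501-46266530, minus strand, response element: cagacccgaaTGATGAAAAgggatcagcta
SLC1A4, chr2:64989381-64989410, plus strand, response element in reverse: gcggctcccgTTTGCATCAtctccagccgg
SLC1A5, chr19:46784868-46784946, minus strand, response element: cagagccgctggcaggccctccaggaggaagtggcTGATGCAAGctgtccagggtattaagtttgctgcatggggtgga
SLC7A1, chr13:29595662-29595691, minus strand, response element: ggcgcactgcTGATGAAACctggcgccgga
SLC3A2, chr11:62881725-62881748, plus strand, response element in reverse: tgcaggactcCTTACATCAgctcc
SLC7A5, chr16:87869597-87869672, minus strand, E-box: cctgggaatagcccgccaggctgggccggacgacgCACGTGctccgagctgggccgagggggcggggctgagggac
SLC7A7, chr14:22816056-22816121, minus strand, E-box: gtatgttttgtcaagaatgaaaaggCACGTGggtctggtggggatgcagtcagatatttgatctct
SLC1A5, chr19:46787303-46787378, minus strand, E-box: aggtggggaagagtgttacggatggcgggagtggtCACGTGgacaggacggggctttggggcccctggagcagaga

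Of the 5 genes with the response element in this window, SLC38A1, SLC1A4, SLC1A5 and SLC7A1 had a probe called higher in mock-treated CEM RES and SLC3A2 had none. Genes without it in this window, SLC38A2 and SLC7A5, were also called higher. SLC38A1 was called at base 137 and base 3258 but not at base 8204, and SLC38A2 at base 2170 only. Over all probes, 24.9% were called higher. Of the 3 genes with the E-box, SLC1A5 and SLC7A5 were called higher and SLC7A7 lower. The response element and the E-box of SLC1A5 lay in different promoters of that gene. The transcription factor MYC was higher in mock-treated CEM RES by 1.93 (SE 0.44, adjusted p = 0.00326). Under FK866 the MYC difference was 0.94 without a call (adjusted p = 0.155). The CEM PA mock arrays for MYC ranged from 10.55 to 12.48, and another MYC probe, A_33_P3245163, was too dim to be kept. Whether MYC or ATF4 acted on these genes was not tested.

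The amino acid response list, ATF4 and genes known to answer to it, had 25 probes of 19 genes, all kept. Between the mock-treated lines 9 of the 25 probes were called higher and 2 lower in CEM RES, 11 in all, beside 47.6% of all probes, and the median difference was 0.30 beside 0.04. The largest rises were in CHAC1, a glutathione-degrading enzyme (1.87 and 1.68 at its 2 probes), ALDH1L2, a mitochondrial folate enzyme (1.69), and ATF3, a stress-induced transcription factor (0.70 to 1.40 at 3 probes, with -0.12 and no call at the fourth, A_24_P33895). The ALDH1L2 probe was dim in CEM PA mock (3.69 ± 0.14, SD, n = 3) and well above background on 2 of these arrays. Under FK866 its difference between the lines was 0.67 without a call (adjusted p = 0.242). The falls were in CTH, an enzyme of cysteine synthesis (-1.25, adjusted p = 7.9e-05), and CEBPB, a partner of ATF4 (-1.05, adjusted p = 0.000479). ATF4 itself was not called between the mock-treated lines (0.09, adjusted p = 0.668). Under FK866 in both lines, 6 probes were called higher and 4 lower, beside 36% of all probes, and the median difference was 0.05 beside 0.06. For FK866 against mock, limma called 0 of the 25 probes in either line, and 4 in CEM PA and 2 in CEM RES had an unadjusted p under 0.05.

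The array also measured 30 other amino acid transporters, of which 14 genes (18 of 42 probes) passed the filter. Between the mock-treated lines 4 of these 18 probes were called higher and 5 lower, close to the share of 47.6% over all probes, with a median difference of 0.09. The highest were the glycine carrier SLC6A9 (1.12), 1 probe of the taurine carrier SLC6A6 (0.94) and SLC43A1, a carrier of large neutral amino acids (0.90). The lowest were SLC3A1, a relative of the CD98 heavy chain (-1.04), the proton-coupled carrier SLC36A1 (-0.86) and the other SLC6A6 probe (-0.82). Both probes of SLC6A6 were thus called, in opposite directions. Unequal probes were common on the array, where 46.4% of all pairs of probes of a gene were called between the mock-treated lines. The SLC6A6 probe A_24_P359191 was the 1 probe of this list called for FK866 in CEM PA, at 7.94 ± 0.16 (SD, n = 3) in mock and 9.41 ± 0.15 (n = 2) under FK866, a difference of 1.47 (SE 0.26, adjusted p = 0.018 by limma). The other SLC6A6 probe, A_24_P46093, differed by -0.97 in the same comparison (SE 0.34, unadjusted p = 0.0132, adjusted p = 0.192). Its groups did not overlap, as was the case for 34.8% of all probes in that comparison.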

How the data were processed

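RNA of 13 samples was hybridised to 1-colour Agilent 4x44K v2 arrays. The authors deposited spot intensities from Agilent Feature Extraction 10.7.7.1, background-corrected but not normalized between arrays, and a table of quantile normalized log2 values, whose columns all have a median of 5.37 and rank the probes as the intensities do (Spearman correlation at least 0.99998).

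Here the intensities were put on the log2 scale, outlier and control spots removed, arrays quantile normalized and spots of a probe averaged. Probes were kept whose signal exceeded background on each array of 1 group or more. The 4 groups were fitted in 1 model with limma 3.58.1 in R 4.3.3 (prior degrees of freedom 3.25), each probe separately, with two-sided p-values adjusted over the 22754 kept probes. They measure the spread between arrays labelled as biological replicates. "At least" folds put arrays not above background at the lowest signal of detected probes, and hold only for the background correction of the reported fit. The test of probe pairs was added after the data were examined. Members and lists were chosen with earlier results of these data known. All 13 transporter probes are named. Of the other lists, up to 3 genes per direction among called probes are named, and ATF4. A marker gene of the lists is not reported here.

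Replicate numbers come from the labels. Same-numbered mock and FK866 arrays of a line deviated together (correlations of 0.2 to 0.474 over 22754 probes), and a fit with the number as a block was run. Differently numbered arrays were not compared, so these correlations cannot show that the number marks a pairing. In CEM PA, the replicate 1 arrays also shared a slide and a scan session. With slide or scan session as the block, 0 of the 13 probes were called for FK866 in CEM PA, against 0.0308% and 1.64% of all probes. For comparisons between the lines, the block joined arrays of the same number from both lines, a pairing that was not checked. The values reported are from the fit without the block, and blocked values stand beside those whose call they change. The fit was tested on simulated data. Alternatives changed the scaling, background correction, filter, outlier spots, choice of probe, table, groups fitted, blocks (replicate, slide, scan session), weights and variance trend, or left out each array. Arrays give no counts, so their number limits the precision. Sequences came from the array design and RefSeq; all 10 symbols matched the RefSeq gene table. Python 3.11.15, pandas 2.3.3, numpy 2.4.6 and matplotlib 3.10.9 were used.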

Additional observations from a re-analysis of the deposited data

Results flagged for a closer look

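The SLC6A6 probe A_24_P359191 responded to FK866 differently in the lines: it was higher by 1.47 in CEM PA and its response differed by -1.91 in CEM RES (RES minus PA, adjusted p = 0.0251 by limma). The other SLC6A6 probe, A_24_P46093, had differences of the opposite sign, -0.97 in CEM PA and 1.18 between the responses, neither called (adjusted p = 0.192 and 0.294). Among 150 groups of 4 arrays, 10 held an array far from the other 3, and chance alone flags about 1 in 20 groups. For the SLC38A1 probe pair (base 3258 minus base 8204), CEM RES FK866 replicate 4 read -1.03 and the others -0.29 to -0.20. CEM RES FK866 replicate 4 also stood apart for ATF3 A_33_P3214105 (8.45, others 8.91 to 8.96), NUPR1 (5.37, others 5.05 to 5.10) and SLC38A8 (2.96, others 3.72 to 3.88). In CEM RES mock, replicate 1 stood apart for ATF3 A_33_P3214105 (9.50, others 9.12 to 9.17), replicate 3 for PCK2 (12.26, others 11.77 to 11.80) and CEBPB (12.77, others 13.14 to 13.21), and replicate 4 for SLC16A10 A_24_P98047 (6.35, others 3.82 to 3.98). In CEM RES FK866, replicate 1 stood apart for TRIB3 (14.76, others 15.19 to 15.23) and replicate 3 for MTHFD2 (14.01, others 13.85 to 13.87).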

How the results depend on the processing

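The count of transporter probes called by limma stayed within 1.5 times the reported one except as follows. With 1 probe per gene, the brightest, it was 5 of 10 between the mock-treated lines and 4 of 10 under FK866. Over all genes tested so, 47.7% and 35.5% were called. The count changed because that rule keeps the SLC38A1 probe at base 8204 and the SLC38A2 probe at base 4085. With the replicate block it was 2 for FK866 in CEM PA (SLC38A2 and SLC1A4), beside 5.35% of all probes. For the difference between responses it was 1 (SLC38A2), beside 2.14% of all probes. The block changed no other call of a transporter probe, and of the probe pairs only those given in the report. Array quality weights gave 1 and 1, both SLC38A2, beside 6.2% and 1.27% of all probes. Leaving out each array in turn gave 7 to 9 called between the mock-treated lines and 4 to 9 under FK866. The count was 4 without either CEM PA FK866 array, where 18.4% (replicate 1 left out) and 22% (replicate 2) of all probes were called. Across these fits, the share of all probes was 41.5% to 47.2% in mock and 18.4% to 38.2% under FK866. For FK866 in CEM PA, FK866 in CEM RES and the difference between responses, 0 were called each time. No called difference changed direction. Under 75th percentile scaling, the median of all probes shifted between the mock-treated lines from 0.04 to 0.17, with 7 transporter probes higher and 1 lower. The fit that used only the compared groups has no value for the difference between responses. Dim probes (SLC7A7 and SLC38A1 at base 137) depend on the background correction, and 2 CEM PA FK866 arrays limit what can be seen of the response in CEM PA.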
